A study of Mus musculus with 7 samples.

Results

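Transcripts of the constitutive proteasome were examined in Langerhans cells (LC), the dendritic cells of the epidermis. The genes were chosen by name: symbols in the deposited annotation that start with Psma, Psmb, Psmc, Psmd or Psme and a digit, leaving out the immunoproteasome genes Psmb8, Psmb9 and Psmb10 and the interferon-inducible activator genes Psme1 and Psme2. This gave 39 of the 21755 gene symbols on the array. They are 16 genes of the core particle, 6 ATPases, 14 genes of the lid, the base or their chaperones, 2 activators and Psmc3ip, which meets the naming rule but encodes a meiotic recombination protein. Of these, 37 lay above the filter on dim genes, which left out the lowest 40% of symbols by mean level (below 6.07 log2). The other two, the testis subunit gene Psma8 and the thymus subunit gene Psmb11, are genes of other tissues.

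The LC were sorted by flow cytometry from adult wild-type C57:Bl6 mice, pooled to more than 10000 cells for each sample and hybridised by the ImmGen consortium. There were 4 control samples from naive mice and 3 from mice that had received 12 Gy of ionizing radiation. No transgene was used, and the labels give neither the time after irradiation nor the sex or exact age of the mice. Whether samples within a group were drawn from different mice is not stated, so the p-values reflect sample-to-sample spread that could be technical.

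The proteasome is the barrel-shaped protease that degrades proteins tagged with ubiquitin. Its core is a stack of outer rings of alpha subunits, which form the gate, and inner rings of beta subunits, some of which cut the peptide chain. A regulatory particle caps the core: a ring of ATPases and scaffold proteins form its base, which unfolds and feeds the substrate, and the lid removes the ubiquitin. In dendritic cells the peptides released also supply MHC class I presentation, and inflammatory signals can exchange the constitutive catalytic subunits for immunoproteasome ones.

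The transcription factor Nfe2l1 raises proteasome genes through antioxidant response elements, and the factor NF-Y binds CCAAT boxes. RefSeq windows of the 250 bases before the annotated start (GRCm38.p6) matched 32 of the 39 genes, with 34 windows. The genes without a window were Psma8, Psmb1, Psmb2, Psmb7, Psmc3, Psmd3 and Psmd7. The letters TGACNNNGC, searched on both strands, were found in 14.7% of these windows and in 10.2% of all 32851 windows, and CCAAT in 41.2% and 33.8%. Matches of the 2 motifs did not overlap in any of the 34 windows. Shown are the windows of Psmb3, Psma1 and the catalytic subunit genes Psmb5 and Psmb6. In Psmb3, Psma1 and Psmb6 all irradiated levels were below the controls. Capitals mark every TGACNNNGC or CCAAT match on either strand.
Psmb3 (chr11:97703184-97703433, + strand): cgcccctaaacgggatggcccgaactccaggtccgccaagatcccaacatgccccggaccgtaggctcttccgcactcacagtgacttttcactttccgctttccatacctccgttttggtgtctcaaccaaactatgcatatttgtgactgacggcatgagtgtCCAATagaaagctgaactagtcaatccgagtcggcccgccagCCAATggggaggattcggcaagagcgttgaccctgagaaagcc
Psma1 (chr7:114276117-114276366, - strand): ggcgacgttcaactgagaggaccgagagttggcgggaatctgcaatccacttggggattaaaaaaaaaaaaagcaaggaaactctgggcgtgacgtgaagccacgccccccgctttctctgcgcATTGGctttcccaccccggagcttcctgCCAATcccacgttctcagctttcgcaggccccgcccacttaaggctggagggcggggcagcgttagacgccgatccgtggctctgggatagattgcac
Psmb5 (chr14:54617996-54618245, - strand): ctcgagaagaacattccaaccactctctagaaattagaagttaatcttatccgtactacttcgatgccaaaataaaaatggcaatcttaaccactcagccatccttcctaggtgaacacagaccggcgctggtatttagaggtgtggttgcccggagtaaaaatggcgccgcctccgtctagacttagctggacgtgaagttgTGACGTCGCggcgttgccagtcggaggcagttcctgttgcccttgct
Psmb6 (chr11:70525107-70525356, + strand): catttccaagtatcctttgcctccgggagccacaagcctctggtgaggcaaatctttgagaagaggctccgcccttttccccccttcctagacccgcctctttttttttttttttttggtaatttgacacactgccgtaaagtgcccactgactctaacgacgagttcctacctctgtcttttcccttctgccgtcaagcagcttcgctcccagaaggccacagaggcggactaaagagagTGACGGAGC
Psmb3 and Psma1 each hold 2 CCAAT matches and no TGACNNNGC. Psmb5 and Psmb6 each hold 1 TGACNNNGC match, starting 47 and 9 bases before the annotated start, and no CCAAT. Other genes with a window also had all irradiated levels below the controls. Of them, Psmb4, Psmc4, Psmc5, Psmd1, Psmd8 and Psmd13 hold neither motif. Psmd4, Psmd14 and Psme3 each hold 1 CCAAT match and no TGACNNNGC. Among the tested genes with a window, the 5 with a TGACNNNGC match (Psmb5, Psmb6, Psmc6, Psmd9 and Psmd12) had differences between irradiated and control of -0.48 to 0.10 log2, and the 26 without one differences of -0.88 to 0.08. These matches are a description of the sequence and not of binding.

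Most proteasome genes had lower mean levels in irradiated than in control LC, but 0 of 37 passed the test with all 7 arrays. The median difference was -0.47 log2 over the 37 genes and -0.05 over all 13053 genes tested. In 35 of the 37 (94.6%) the irradiated mean was below the control mean, where this held for 55.0% of all genes. That count was 28 (44.8% of all genes) after quantile normalization and 30 (43.3%) after median centring. In 15 of the 37 (40.5%) all 3 irradiated samples lay below all 4 controls, a pattern seen in 15.3% of all genes. All irradiated samples lay above the controls in 0 of 37, and in 3.46% of all genes. The test was limma over all genes with Benjamini-Hochberg adjustment (adjusted p under 0.05), which called 1.56% of all genes lower. Unadjusted, 15 of the 37 (40.5%) had p under 0.05, all lower, against 16.1% of all genes. This count was 9 after quantile normalization (10.9% of all genes), 8 after median centring (10.8%), and 8 without control replicate 3 (11.5%) or 4 (11.4%). In sorted bulk samples, fewer cells of a type and less RNA per cell cannot be told apart.

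The library labelled irradiated replicate 1 stood apart from the rest. Its correlations with the other arrays over the tested genes were 0.650 to 0.728, where the other 6 arrays correlated at 0.858 or above with each other. The summed intensity of 8 LC markers was 10.44 log2 there, against 14.97 to 15.32 in the controls and 15.48 and 15.50 in irradiated replicates 2 and 3, and Cd207, the gene of langerin, was at 5.64 against 8.85 to 12.35 in the other 6 samples. All 8 markers were below every control there. In irradiated replicates 2 and 3 single markers went both ways, with 3 and 5 of 8 above all controls and 1 of 8 below them in each. Without irradiated replicate 1, Cd207 (2.06, limma adjusted p = 0.188), Mfge8 (0.91), H2-Ab1 (0.27), H2-Aa (0.23) and Cd74 (0.14) had higher means. Epcam (-0.51) and Ptprc (-0.56) had lower means, and Itgax, an integrin gene of dendritic cells, fell (-1.14, limma adjusted p = 0.0247). Most markers of other cells were high in irradiated replicate 1. The sum of 10 keratinocyte markers was 14.26 (controls 11.42 to 13.60, irradiated replicates 2 and 3 12.97 and 12.60), with 9 of 10 above all controls and Krt1 below them in every irradiated sample. That of 6 fibroblast markers was 13.99 (10.29 to 12.19, and 11.52 and 9.65). The sum of 3 erythroid markers was 14.34 (8.54 to 10.03, and 10.17 and 7.94), that of 4 endothelial markers 9.84 (8.31 to 8.51, and 8.48 and 8.28) and that of 3 of 4 melanocyte markers 8.31 (7.47 to 7.75, and 7.66 and 7.85). The sum of 6 T cell markers was above the controls (8.56 to 8.88) in all irradiated samples, at 9.87, 9.18 and 10.21, but not every marker was. Irradiated replicate 1 had 4 of 6 above all controls, with Thy1 at 9.21 and with Cd3g (5.25) and Lck (6.34) inside the control range, and replicates 2 and 3 had 3 and 5 of 6. No marker was at an intensity of 0, since the lowest on any array was 3.99 on the linear scale. Cd207 in irradiated replicate 1 (5.64 log2) was under the level of the filter on dim genes (6.07 log2). Xist, which silences an X chromosome in female cells, was at 10.94 to 11.71 log2 in the controls and 5.31 to 5.93 in the irradiated samples, so sex and irradiation cannot be told apart. The part of these differences in the results was not tested. Values without irradiated replicate 1 are given where they move the difference of a named gene by over 1.5 times, and for the genes described in most detail.

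Without that library the proteasome genes lay closer to the controls. The median difference was -0.29 log2 (all genes -0.05), and 31 of 37 genes (83.8%) had a lower mean, against 56.4% of all genes. Both remaining irradiated samples were below all controls in the same 15 genes (40.5%, against 20.3% of all genes). Psmb2 and Psmb3 fell (2 of 37, 5.41%), where 3.06% of all genes were called lower and 1.58% higher, and 10 of 37 (27.0%) had an unadjusted p under 0.05, against 15.1% of all genes.

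**Figure D1:**
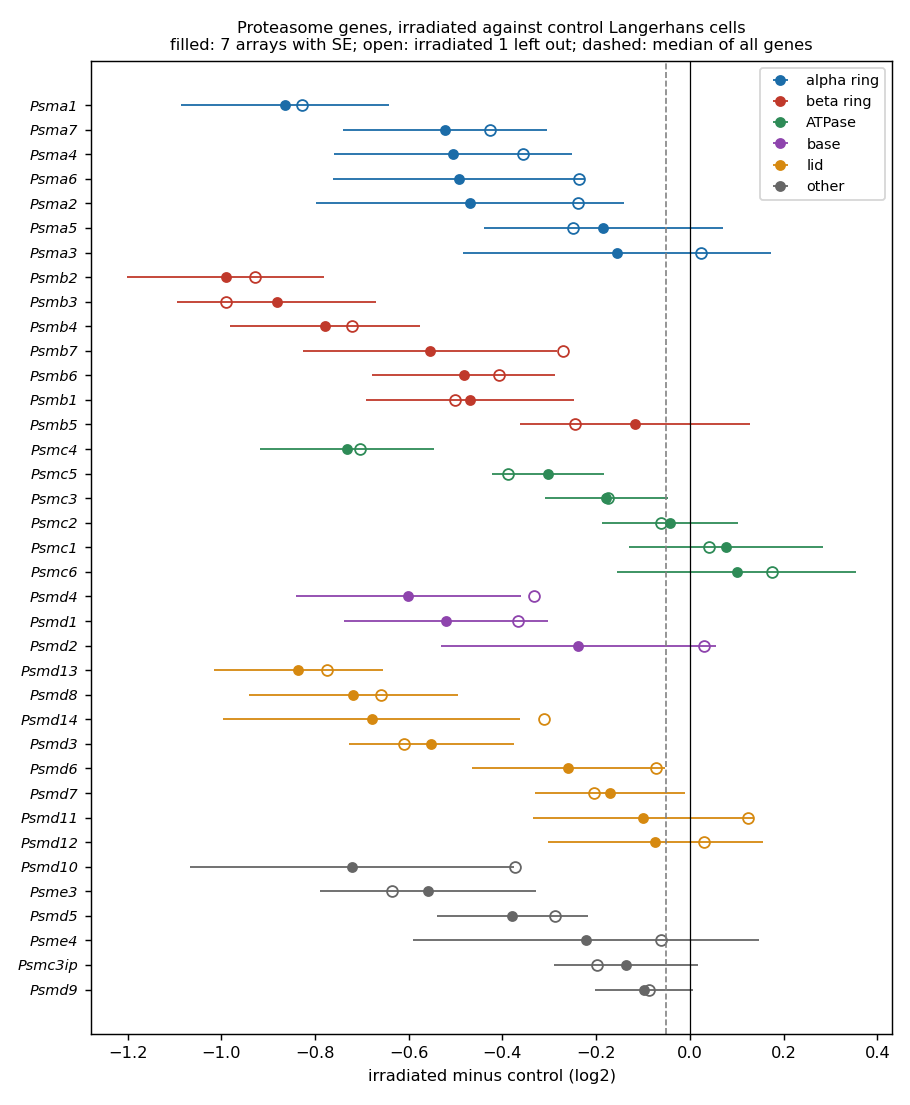
Difference between irradiated and control means (log2) of the 37 tested genes, ordered by place in the particle; filled points with bars are the difference and SE over 7 arrays, open points the difference without irradiated replicate 1, and the dashed line the median of all genes tested. The beta ring reaches from -0.99 to -0.12, and the ATPases from -0.73 to 0.10.

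The beta ring held the proteasome genes with the lowest differences, Psmb2 and Psmb3. The median over its 7 tested genes was -0.55 log2 (-0.50 without irradiated replicate 1), and all 7 had a lower mean. Whether the ring differed from the alpha ring (median -0.49) or the base (-0.52) was not tested. Psmb2 encodes a structural subunit without proteolytic activity. Its levels were 9.60, 9.85, 9.89 and 9.96 log2 in control replicates 1 to 4 and 8.71, 8.75 and 9.04 in irradiated replicates 1 to 3. Every irradiated sample was at least as far below the lowest control as the controls lay apart from each other. The difference was -0.99 (SE 0.21, 1.99-fold lower, limma adjusted p = 0.0623, n = 4 and 3). Without irradiated replicate 1 it was -0.93 (SE 0.19, adjusted p = 0.0452), and it also passed there after quantile normalization (adjusted p = 0.0258) or median centring (adjusted p = 0.0401). It missed the threshold when any other array was left out (adjusted p = 0.0551 to 0.216).

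Psmb3, the gene of another structural subunit, was at 12.08, 11.90, 11.64 and 11.61 in the controls and at 11.14, 10.61 and 11.03 in the irradiated samples. The groups did not overlap, and here the control replicates 3 and 4, high for most subunits, were the low ones. The difference was -0.88 (SE 0.21, adjusted p = 0.0835), and -0.99 without irradiated replicate 1 (SE 0.20, adjusted p = 0.0431). In that comparison it did not pass after quantile normalization (adjusted p = 0.0704) or median centring (adjusted p = 0.0692). Psmb3 also missed the threshold when any other array was left out (adjusted p = 0.0947 to 0.262). The second probe set of Psmb3 differed by -0.97. Psmb4, which helps to join the rings of the core, was also below the controls throughout (-0.78, SE 0.20, adjusted p = 0.102). Psmb1 overlapped (-0.47, SE 0.22, adjusted p = 0.293).

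The catalytic subunits differed from each other in their values. Psmb5, which carries the chymotrypsin-like activity, was at 9.25, 9.73, 9.60 and 9.90 in the controls and at 9.76, 9.26 and 9.49 in the irradiated samples. The irradiated values lay inside the control range (difference -0.12, SE 0.25, adjusted p = 0.806; -0.24 without irradiated replicate 1). Psmb6, with the caspase-like activity, was at 8.002, 7.88, 8.32 and 8.36 in the controls and at 7.51, 7.59 and 7.88 in the irradiated samples. All irradiated values were lower, irradiated replicate 3 only just (7.8786 against 7.8798 in the lowest control), with a difference of -0.48 (SE 0.20, adjusted p = 0.230). Psmb7, with the trypsin-like activity, was at 7.99, 8.20, 8.48 and 8.56 in the controls and at 7.19, 8.06 and 8.02 in the irradiated samples. Only irradiated replicate 1 lay below all controls, and the difference moved from -0.55 (SE 0.27, adjusted p = 0.305) to -0.27 without it.

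The immunoproteasome subunits that replace these 3 were lower in every irradiated sample than in any control, as were 15.3% of all genes. Their differences were -1.43 log2 for Psmb8, -0.63 for Psmb9 and -0.88 for Psmb10, of which Psmb8 passed (limma adjusted p = 0.0154). The difference between partner and constitutive subunit was compared within arrays for 3 pairs, with two-sided exact permutation tests over 35 splits, whose smallest p is 0.0571, so that none of the pairs could reach 0.05. Psmb8 minus Psmb5 was -1.93 ± 0.32 in the controls (SD, n = 4) and -3.24 ± 0.59 in the irradiated samples (SD, n = 3), a shift of -1.31 (exact p = 0.0571, 0.171 adjusted over the 3 pairs; -0.97 without irradiated replicate 1). The shift was -0.15 for Psmb9 minus Psmb6 (exact p = 0.571, adjusted 0.571) and -0.33 for Psmb10 minus Psmb7 (exact p = 0.457, adjusted 0.571; -0.72 without irradiated replicate 1). Psmb8 minus Psmb5 was lower in all 3 irradiated arrays than in any control, and the other pairs overlapped.

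**Figure D2:**
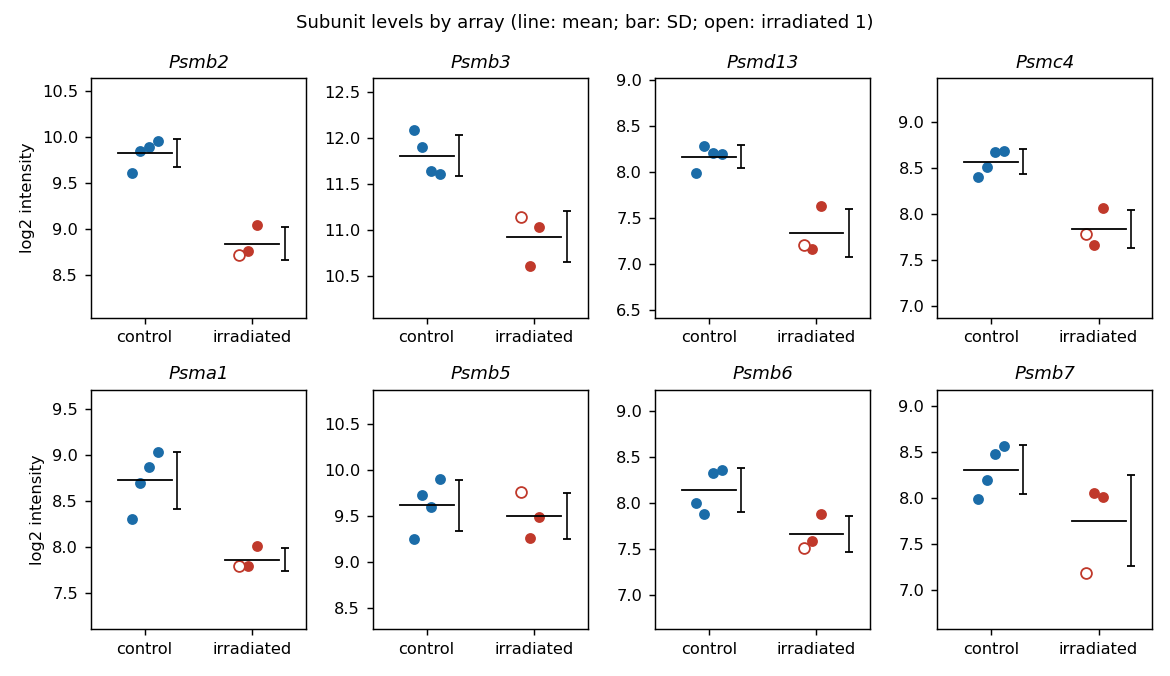
Level (log2 intensity) of 8 subunit genes in each array, with group mean (line), SD (bar) and irradiated replicate 1 as an open point; every panel spans the same number of log2 units. Psmb2, Psmb3, Psmd13, Psmc4, Psma1 and Psmb6 have all irradiated samples below all controls, and Psmb5 and Psmb7 overlap.

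The alpha ring had a median difference of -0.49 log2 over 7 tested genes (-0.25 without irradiated replicate 1), all with a lower mean. Psma1 stood lowest and was the 1 of 7 alpha genes with all irradiated samples below all controls, a pattern seen in 15.3% of all genes. It was at 8.31, 8.70, 8.88 and 9.03 in the controls and at 7.79, 7.79 and 8.01 in the irradiated samples, a difference of -0.86 (SE 0.22, adjusted p = 0.0999; -0.83 without irradiated replicate 1, adjusted p = 0.0987). Psma3, whose product helps to form the gate, was the least different, at 7.66, 8.21, 8.59 and 8.91 in the controls and 7.83, 8.53 and 8.20 in the irradiated samples. These lay inside the control range (-0.16, SE 0.33, adjusted p = 0.807), and its 3 probe sets differed by -0.17, -0.14 and -0.16. Psma2, Psma4, Psma6 and Psma7 had differences of -0.47, -0.51, -0.49 and -0.52, and Psma5 one of -0.18. These 5 overlapped with the controls, at adjusted p of 0.243 to 0.6995. The second probe set of Psma5 differed by -0.41. Psma2 and Psma6 were both at -0.24 without irradiated replicate 1, and Psma3 was at 0.02. Psma8, below the filter, was at 4.87 ± 0.24 (SD, n = 4) and 4.89 ± 0.04 (SD, n = 3), and Psmb11 at 5.85 ± 0.10 and 6.21 ± 0.21.

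The ATPase genes had differences on both sides of 0. Their median difference was -0.11 log2 (-0.12 without irradiated replicate 1). Of the 6, 4 had a lower mean (55.0% of all genes) and 3 lay below all controls (15.3% of all genes). Psmc4, a ring subunit that unfolds substrates with its neighbours, was at 8.40, 8.51, 8.67 and 8.68 in the controls and at 7.78, 7.66 and 8.06 in the irradiated samples. All irradiated values were clearly lower, with a difference of -0.73 (SE 0.19, adjusted p = 0.0975; -0.70 without irradiated replicate 1, adjusted p = 0.0880). Psmc6 was at 6.92, 7.61, 7.75 and 7.94 in the controls and at 7.503, 7.86 and 7.61 in the irradiated samples, inside the control range (0.0996, SE 0.25, adjusted p = 0.844; 0.18 without irradiated replicate 1). Psmc1 (0.08, and 0.04 without that library) and Psmc2 (-0.04) overlapped likewise. The second probe set of Psmc1 differed by -0.14. Psmc5 (-0.30, SE 0.12, adjusted p = 0.218) and Psmc3 (-0.18, SE 0.13, adjusted p = 0.475) were below the controls in every sample by smaller amounts. With the arrays rescaled, the median of the 6 was 0.050 (quantile) or 0.015 (median centring), so no direction is given for the ring. Whether the ring differed from the rest of the particle was not tested.

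In the base, Psmd4 encodes a receptor for ubiquitin chains. It was at 7.48, 7.63, 7.72 and 7.99 in the controls and 6.57, 7.27 and 7.47 in the irradiated samples. Irradiated replicate 3 reached 7.4738 against 7.4786 in the lowest control, and the difference moved from -0.60 (SE 0.24, adjusted p = 0.226) to -0.33 without irradiated replicate 1. Psmd1, a scaffold gene, was at 8.83, 8.89, 8.94 and 9.24 in the controls and at 8.15, 8.58 and 8.63 in the irradiated samples, which lay below (-0.52, SE 0.22, adjusted p = 0.245). Psmd2, the other large scaffold, was at 8.38, 8.72, 8.87 and 9.12 in the controls and at 7.998, 8.66 and 8.95 in the irradiated samples. Its groups overlapped (-0.24, SE 0.29, adjusted p = 0.664; 0.03 without irradiated replicate 1), and its 2 probe sets differed by -0.24 and -0.46. The second probe set was at -0.09 without irradiated replicate 1.

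The lid genes were split. The median over 8 was -0.41 log2 (-0.26 without irradiated replicate 1). In 4 of the 8, Psmd3, Psmd8, Psmd13 and Psmd14, no irradiated sample reached the controls, a pattern seen in 15.3% of all genes. Psmd13, a structural lid subunit, was at 7.98, 8.27, 8.21 and 8.20 in the controls and at 7.21, 7.15 and 7.63 in the irradiated samples. The gap between the groups exceeded the spread of the controls, with a difference of -0.84 (SE 0.18, 1.78-fold lower, adjusted p = 0.0652; -0.77 without irradiated replicate 1, adjusted p = 0.0687). Psmd14, the gene of the deubiquitinase of the lid, was at 9.18, 9.52, 9.32 and 9.58 in the controls and 7.98, 9.10 and 9.08 in the irradiated samples. Irradiated replicate 1 was far lower than the other two, and the difference of -0.68 (SE 0.32, adjusted p = 0.286) was -0.31 without it.

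Psmd8 (-0.72, SE 0.22, adjusted p = 0.144) and Psmd3 (-0.55, SE 0.18, adjusted p = 0.153) were as low without that library, at -0.66 and -0.61. Psmd12 was at 6.91, 7.33, 7.48 and 7.80 in the controls and 7.10, 7.25 and 7.58 in the irradiated samples, inside the control range (-0.07, SE 0.23, adjusted p = 0.873; 0.03 without irradiated replicate 1). Psmd11, whose product links the lid to the core, reached 8.36 in irradiated replicate 3, above the highest control at 8.24, and 7.52 in irradiated replicate 1, below the lowest at 7.81 (-0.10, adjusted p = 0.830; 0.12 without irradiated replicate 1). Psmd7 was at 12.48, 12.26, 12.11 and 12.12 in the controls and 12.14, 11.88 and 12.20 in the irradiated samples, which overlapped (-0.17, SE 0.16, adjusted p = 0.568). Its 2 probe sets had control means of 12.24 and 7.82 and differences of -0.17 and -0.38. In the dimmer one all irradiated values (at most 7.4952) were below the controls (at least 7.5207). The reading of this gene therefore depends on the probe set. Psmd6 differed by -0.26 (adjusted p = 0.503; -0.07 without irradiated replicate 1).

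Of the chaperones that help the ATPase ring to assemble, Psmd10 (gankyrin, which also binds the p53 regulator Mdm2) was at 6.80, 7.39, 7.53 and 7.97 in the controls and at 6.003, 7.14 and 6.96 in the irradiated samples. The difference was -0.72 (SE 0.35, adjusted p = 0.296) and -0.37 without irradiated replicate 1, the lowest sample. Psmd10 is X-linked in RefSeq. Psmd5 differed by -0.38 (SE 0.16, adjusted p = 0.249). Psmd9 was at 6.55, 6.58, 6.44 and 6.55 in the controls and at 6.41, 6.55 and 6.34 in the irradiated samples, with overlap (-0.10, SE 0.10, adjusted p = 0.621). The activator gene Psme3, whose product opens the nuclear core particle without ubiquitin, was at 9.32, 8.96, 9.18 and 8.98 in the controls and at 8.71, 8.18 and 8.77 in the irradiated samples. All 3 were below the controls (-0.56, SE 0.23, adjusted p = 0.239; -0.64 without irradiated replicate 1). The other activator gene, Psme4, varied most among the controls, from 7.02 to 8.63, and differed by -0.22 (SE 0.37, adjusted p = 0.753; -0.06 without irradiated replicate 1). Psmc3ip differed by -0.14 (adjusted p = 0.638).

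The subunit genes also varied together within a group. Control replicate 4 was the highest control in 28 of the 37 genes and control replicate 1 the lowest in 27. Over all genes tested these shares were 25.9% and 39.8%. Among the irradiated samples, replicate 3 was highest in 21 of 37 (39.2% of all genes) and replicate 1 lowest in 20 (38.9%). The per-array median of the 37 genes was 7.60, 7.81, 8.14 and 8.20 in control replicates 1 to 4 and 7.41, 7.59 and 7.63 in irradiated replicates 1 to 3, so irradiated replicates 2 and 3 lay close to control replicate 1 and below the other controls. The labels of control replicates 1 and 4 each cite an earlier record, and the other 5 cite none. Against control replicates 2 and 3 alone, all 37 genes had a lower irradiated mean (median -0.44).

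**Figure D3:**
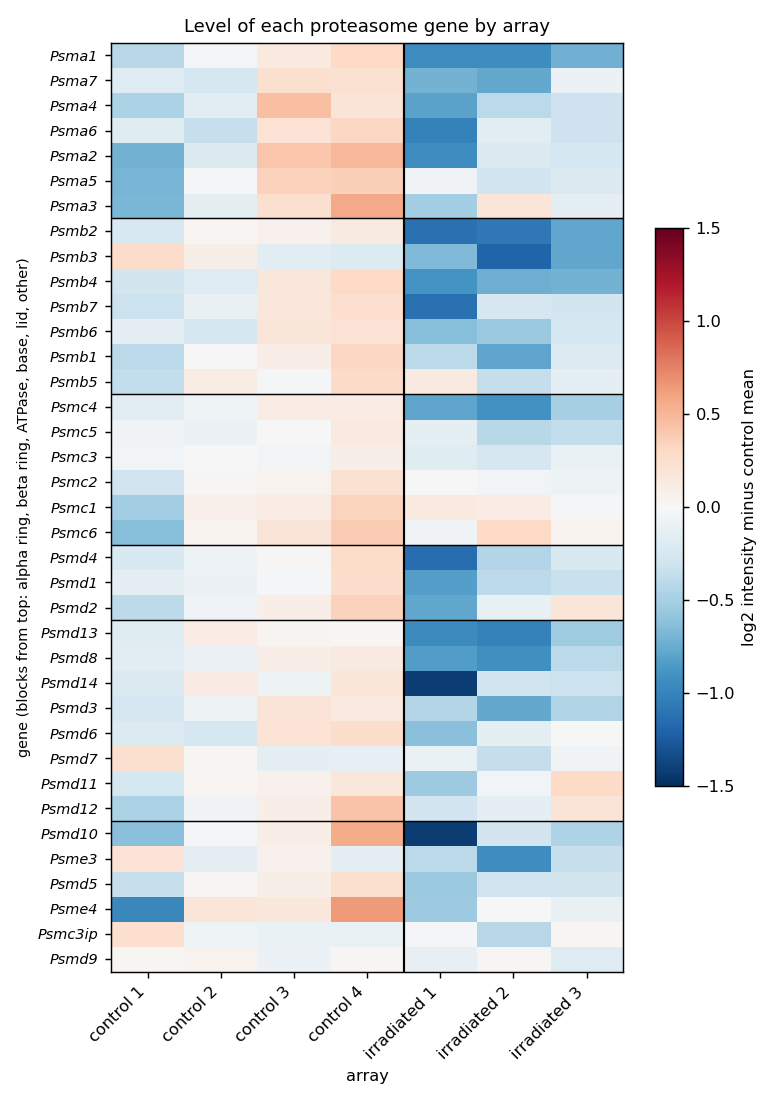
Level of each of the 37 tested genes in each array, as log2 intensity minus the control mean of the gene (blue lower, red higher; colour scale in log2 units); rows are blocked by place in the particle. Control replicate 1 is bluer than the other controls in most rows, and the irradiated columns are blue in most rows outside the lower ATPase rows.

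Genes that act with the proteasome were read from 5 further lists. Of the dedicated core assembly factors, 4 of 5 were tested and all 4 had a lower mean (median -0.68 log2). Pomp, the maturation factor of the core, fell. It was at 8.12, 8.12, 8.49 and 8.40 in the controls and at 6.95, 7.18 and 7.54 in the irradiated samples, which did not overlap. The difference was -1.06 (SE 0.20, 2.08-fold lower, adjusted p = 0.0497), just past the threshold. It was -0.92 without irradiated replicate 1 (adjusted p = 0.0466) and missed the threshold when any other array was left out (adjusted p = 0.0536 to 0.194). Psmg2, an alpha ring chaperone, was at 7.09, 7.29, 7.31 and 7.21 in the controls and at 6.89, 6.45 and 5.95 in the irradiated samples. Here irradiated replicate 1 was the highest of the 3, and the gene passed without it (-1.02, SE 0.17, adjusted p = 0.0232) but not with it (-0.79, adjusted p = 0.107). Psmg1 and Psmg4 differed by -0.57 and -0.49, and Psmg3 lay below the filter.

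Of 4 genes of ubiquitin and its activating enzymes 0 passed limma's test (0 also at an unadjusted p under 0.05, median -0.21, and -0.02 without irradiated replicate 1). The polyubiquitin gene Ubb had means of 12.75 (control) and 12.80 (irradiated), a difference of 0.05 (SE 0.17, adjusted p = 0.890; 0.22 without irradiated replicate 1), and its groups overlapped with all 7 arrays. Uba1, the main ubiquitin-activating enzyme, was below all controls in every irradiated sample, with a difference of -0.32 (SE 0.19, adjusted p = 0.395). Of 9 genes of ubiquitin receptors, deubiquitinases and other proteins that bind the particle 0 passed (median -0.31, and -0.11 without irradiated replicate 1). At an unadjusted p under 0.05, 3 of the 9 were lower, against 16.1% of all genes. Rad23b, a shuttle for ubiquitinated proteins, differed by -0.26 (adjusted p = 0.522) and Ubqln1, another shuttle, by -0.31 (adjusted p = 0.582). These were -0.11 and -0.03 without irradiated replicate 1.

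Of 8 regulators of proteasome genes 0 passed (median -0.02), and 1 was lower at an unadjusted p under 0.05, against 16.1% of all genes. Nfe2l2 was at -0.29 and Stat3 at 0.22 (0.34 without irradiated replicate 1). Nfe2l1 and Ddi2, chosen after their values were seen, differed in opposite directions. Nfe2l1, the factor that drives proteasome genes, was at 8.22, 8.25, 8.24 and 8.25 in the controls and at 8.51, 8.68 and 8.64 in the irradiated samples. All irradiated values were above the controls, a pattern seen in 3.46% of all genes (0.37, SE 0.17, adjusted p = 0.264). Ddi2, the protease that activates the Nfe2l1 protein, was at 8.45, 8.74, 9.01 and 9.02 in the controls and 8.29, 7.88 and 8.36 in the irradiated samples, all below (-0.63, SE 0.23, adjusted p = 0.198). The immunoproteasome list had 5 of 5 genes below all controls, where 15.3% of all genes were. Of these 5, 1 (Psmb8) was past the threshold, where 1.56% of all genes were called lower. Their median was -0.88.

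**Figure D4:**
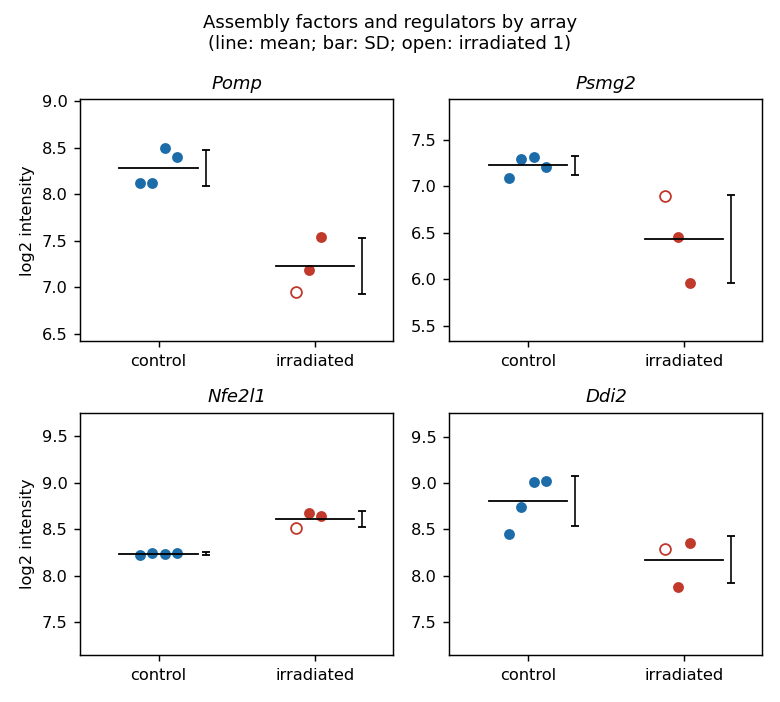
Level (log2 intensity) of the assembly factor genes Pomp and Psmg2 and the regulators Nfe2l1 and Ddi2 in each array, with group mean (line), SD (bar) and irradiated replicate 1 as an open point. Pomp, Psmg2 and Ddi2 are lower in all irradiated samples than in any control, and Nfe2l1 is higher in all.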

How the data were processed

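RNA of 7 samples was measured on arrays with 24922 probe sets. The authors deposited intensities on a linear scale, produced by RMA (robust multi-array averaging) according to the submitters' processing notes. The sources used here give neither the array design nor the genome build nor the set of arrays processed together. Both deposited tables held the same values (174454 of 174454 within 1e-09), and 5 of the 39 probe sets used had the same value on 2 or more arrays (28.0% of all probe sets). Per-array median intensities were 80.2 to 88.2, and the number of arrays limits the precision.

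Values were taken as log2. Each symbol kept the probe set with the highest mean over the 7 arrays, and the lowest 40% of symbols were left out. Levels of different probe sets are not on a common scale. Within-array differences between partner subunits are therefore read only as shifts between groups, and the brightest genes served only to choose which to name. Groups were compared with limma 3.58.1 in R 4.3.3 (eBayes with trend), with Benjamini-Hochberg adjustment over 13053 genes and a threshold of 0.05. Differences are irradiated minus control. In simulated data for this comparison (5 runs, 13053 genes, 200 changed) the test recovered 43.8% of changes of 1 log2 and 91.8% of changes of 2 log2, and 5.44% of calls were false. The simulated noise was independent between genes and equally wide in every array. It held no array that stands apart and no genes that vary together, so these rates may not hold for the measured arrays.

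Values in every sample are given for genes past the threshold with or without irradiated replicate 1, the catalytic subunits, and the lowest, highest and brightest gene of each place in the particle; of the other lists, genes past the threshold or else the 2 brightest are named. Psmd11, Psmd14, Psme4, Nfe2l1, Ddi2, Faf1 and the NF-Y genes were given more detail after their values were seen. The genes and lists were chosen with earlier results of these data known, so no test over a list was made. Some genes of the ubiquitin list are not reported here. Alternatives covered the filter, variance model, weights, scaling, offset, probe sets, replicate block, earlier record, controls used and each array left out. Scaling of the 6 arrays without irradiated replicate 1 was added after the data were seen.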

Additional observations from a re-analysis of the deposited data

Results flagged for a closer look

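Psmc3ip, which meets the naming rule but encodes no subunit, had 1 control far from the others: control replicate 1 was at 6.54 log2, and the other controls at 6.23, 6.19 and 6.19. The gap was 0.899 of the whole control range, above Dixon's critical value of 0.829 for 4 samples. It was the 1 of 37 tested genes with such a gap, and chance flags about 1 group in 20.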

How the results depend on the processing

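With all 7 arrays 219 genes passed (15 higher, 204 lower) and 0 of 37 proteasome genes. The count over all genes was 143 without a filter, 3476 with array weights, 145 after quantile normalization, 134 after median centring, 1 with the earlier record as a term, with controls 2 and 3 only, or with these against irradiated replicates 2 and 3, and 2 to 605 with 1 array left out. Without irradiated replicate 1 it was 669 (314 higher, 355 lower) after quantile normalization and 642 (332, 310) after median centring, against 605 (206, 399) unscaled. Of the proteasome genes, 2 passed without trend (Psmb2 and Psmd13; 2.24% of all genes were called lower, 312 called in all), and 14 with array weights, all lower (20.3% of all genes), where irradiated replicate 1 has the lowest weight (0.19), and 0 to 2 with 1 array left out. Without irradiated replicate 1 and rescaled either way, 1 passed (Psmb2).

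The median of the 37 genes was -0.58 to -0.29 with 1 array left out, that of the core -0.63 to -0.38, of the ATPases -0.17 to -0.06 and of the lid and base -0.53 to -0.30. Without irradiated replicate 1, quantile normalization gave -0.19, -0.22, 0.025 and -0.19, and median centring gave -0.16, -0.26, 0.0069 and -0.17. With all 7 arrays the ATPase median was 0.050 after quantile normalization and 0.015 after median centring. Median centring moved the median of all genes by 0.12 to 0.07. Relative to the median of all genes, the 37 genes were at -0.42, at -0.33 after quantile normalization, at -0.24 without irradiated replicate 1, and there at -0.21 after quantile normalization. Without irradiated replicate 1 and rescaled, 27 of 37 had a lower mean (46.8% of all genes after quantile normalization, 41.0% after median centring).

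Genes with small differences changed sign. With array weights Psma3 was at 0.012 and Psmc1 at -0.015. After quantile normalization Psma3 was at 0.072, Psmb5 at 0.096, Psmc2 at 0.089, Psmc3 at 0.011, Psmd11 at 0.10, Psmd12 at 0.090 and Psmd7 at 0.14, and after median centring Psmb5 at 0.0082, Psmc2 at 0.083, Psmd9 at 0.028, Psmd11 at 0.026 and Psmd12 at 0.051. Psmc1 was at -0.029 over all probe sets, -0.012 with controls 2 and 3 only or the earlier record as a term (Psmc6 -0.025 in both), and -0.048 with controls 2 and 3 against irradiated 2 and 3 (Psmd2 and Psmd12 0.0071, Psmd11 0.080). With 1 array left out the ranges were -0.38 to 0.036 for Psma3, -0.24 to 0.005 for Psmb5, -0.094 to 0.19 for Psmc1, -0.14 to 0.035 for Psmc2, -0.22 to 0.0058 for Psmc3ip, -0.11 to 0.23 for Psmc6, -0.44 to 0.030 for Psmd2, -0.30 to 0.12 for Psmd11 and -0.23 to 0.066 for Psmd12. Pomp passed under 6 of 20 alternatives (adjusted p = 0.00344 to 0.249). The causes were not tested.

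With the replicate number as a block, which leaves out control replicate 4, 0 of 13053 genes and 0 proteasome genes passed limma's test (2055 and 11 at an unadjusted p under 0.05), the median of the 37 was -0.36, and Psma3 was at 0.036, Psmc2 at 0.035 and Psmd12 at 0.066. Deviations of same-numbered samples correlated at 0.021, -0.055 and 0.168, and those of differently numbered samples at -0.199 to 0.165. With so few arrays these values cannot decide whether same-numbered samples were paired. The limits are 7 arrays, an irradiated library that stands apart, Xist levels that differ between the groups, and dim genes with values near the filter.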

Other observations

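Vcp, the segregase that extracts ubiquitinated proteins and hands them to the proteasome, and 5 of its cofactor genes were also read. None of the 6 passed (limma, adjusted p under 0.05), and their median difference was -0.24 log2 (-0.13 without irradiated replicate 1). At an unadjusted p under 0.05, 1 of the 6 was lower, against 16.1% of all genes. Nploc4, the brightest of them, had means of 9.80 (control) and 9.43 (irradiated; difference -0.37, adjusted p = 0.495; -0.14 without irradiated replicate 1), and Nsfl1c had means of 8.36 and 8.44 (0.08, adjusted p = 0.893; 0.42 without irradiated replicate 1). Faf1, chosen after its values were seen, was the 1 gene of this list with all irradiated samples below all controls (-0.48, SE 0.16, adjusted p = 0.176). This pattern was seen in 15.3% of all genes.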
